A study of Drosophila melanogaster with 3 samples.

Results

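In unfertilized Drosophila eggs the authors listed RNAs made from introns of genes for actin and microtubule proteins. The 6 host genes described here, coro, ck, Gel, alphaTub84B, Katanin-60 and klc, were chosen by name from the authors' lists of stable intronic sequence RNAs (sisRNAs), RNAs cut from introns that outlast splicing. The 2 lists together name 298 host genes. All 6 stand in the longer list of 295 genes, and 5 of them, all but klc, also stand in the counted list of 140 entries with reads. Because the members were chosen with their list entries known, their arms, poly(A) signal hexamers, positions and read counts are given as a description and were not tested.

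The eggs came from y w flies and were unfertilized in every library. The series holds 3 libraries, 1 each of rRNA-depleted total RNA, of its polyA-plus fraction and of its polyA-minus fraction, and no replicate. The authors deposited 1 column of read counts that names no library, so each entry has 1 value. Which library or libraries it counts is not given, and the fractions could not be compared. The entries sum to 11169 reads, which is not the depth of a library, and that depth is unknown here. Intervals on read counts are exact Poisson 95% intervals, which cover counting error only. The lists give no level of any messenger RNA, so the egg label could not be checked against marker genes.

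The egg cytoskeleton has a pair of filament systems. Actin filaments are capped, cut and bundled by binding proteins such as coronin and gelsolin and are pulled on by myosins. Microtubules are built from alpha and beta tubulin, cut by katanin and used as tracks by kinesin, which in the fly oocyte moves RNA and drives cytoplasmic streaming. Intronic RNA from a host gene is not a measure of its messenger RNA or protein.

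Among the actin genes, coro stood far above the rest. It encodes the fly coronin, a WD-repeat protein that binds actin filaments. Its entry on arm 2R, centred at position 2759094 in dm3, had 275 reads (243 to 309). This placed coro sixth of 140 entries, between CG33217 with 325 reads and tun with 265. On arm 2R it ranked 3 of 22, where the other 21 entries had a median of 85 reads. The count was 5.73 times the median of 48 reads over the 135 entries of other hosts, whose order-statistic 95% interval was 39 to 59. By itself coro held 2.46% of all listed reads.

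The second actin gene in read count was ck, which encodes myosin VIIA, a motor known in flies for shaping hairs and bristles. Its entry on arm 2L, centred at 15057349, had 85 reads (67.9 to 105). It was level with CG12384, also at 85 reads, and lay between CG15083 with 87 and CG12177 with 83. Those counts do not differ beyond counting error. On 2L it ranked 3 of 19, with a median of 40 reads over the other entries of that arm.

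Gel encodes gelsolin, a calcium-dependent protein that cuts and caps actin filaments. Its entry on arm 3R, centred at 61168, had 47 reads (34.5 to 62.5). Gel was the lowest of the counted members and the only 1 of them below the median of the other hosts, at 0.979 times its value. CG40006 and eff had the same count of 47, and on 3R Gel shared ranks 18 to 19 of 37.

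Of the microtubule members with a count, Katanin-60 and alphaTub84B, the higher count was that of alphaTub84B. It encodes the alpha tubulin that is made in most fly tissues. Its entry on arm 3R, centred at 2912666, had 72 reads (56.3 to 90.7), level with CG7852 and ninth of the 37 entries of that arm. The treatment of reads that map to more than 1 tubulin gene remains not given in the sources used here.

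Katanin-60 encodes the ATPase subunit of katanin, which severs microtubules. Its single entry on 3R has 2 listed centres, at 1055346 and 1057662, and 56 reads (42.3 to 72.7) over both together. Only 5 of the 140 entries (3.57%) have 2 centres. The count equalled that of CG17574 and lay between polo with 57 and CG9399 with 55. The other entries of 3R had a median of 42.5 reads, as they did when set against alphaTub84B or Gel.

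The last member, klc, encodes the kinesin light chain, which ties the kinesin motor to its cargo. It was listed on arm 3L without a read count. Thus 5 of the 6 members had a count, against 46.4% of all 295 listed hosts and 132 of the 289 others (45.7%, exact Clopper-Pearson interval 39.8% to 51.6%).

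Together the 5 counted members had 535 reads, 4.79% of the total for 3.57% of the entries, and 275 of these reads came from coro alone. Their median was 72 reads, with a range of 47 to 275, and 4 of the 5 lay above the median of the others. Only coro had at least 100 reads, 1 of 5 members against 20.7% of all entries. The log2 ratio of the members' median to that of the others was 0.58, and it was 0.42 without coro and 0.26 with a minimum of 20 reads.

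**Figure D1:**
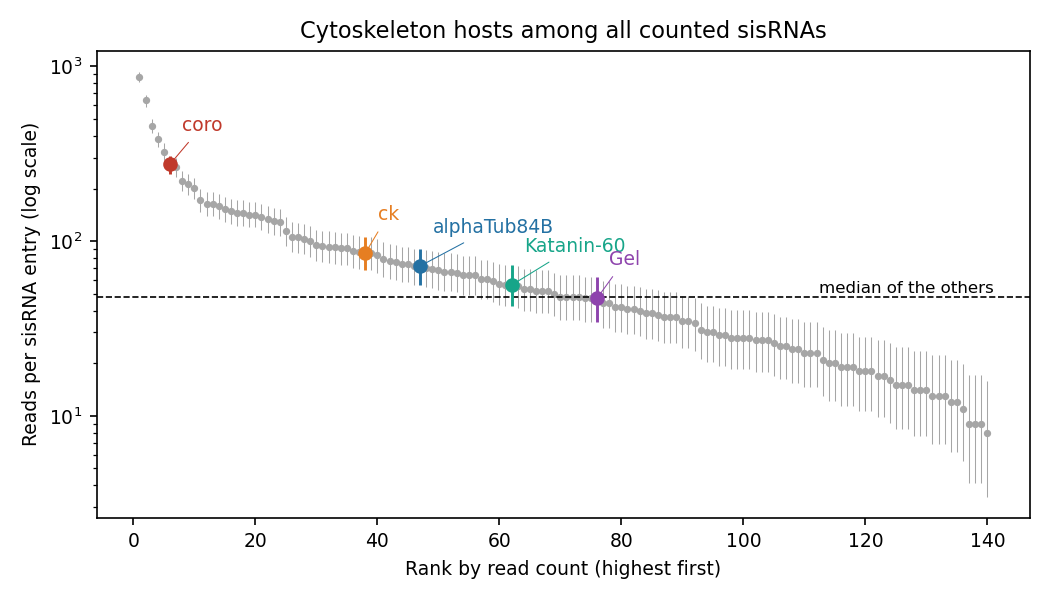
Reads per sisRNA entry on a log axis for all 140 counted entries, ordered from the highest. Coloured points are the 5 cytoskeleton hosts, bars are exact Poisson 95% intervals, and the dashed line is the median of the other entries at 48 reads. The entry of coro lies near the top at 275 reads, and the other 4 lie between 47 and 85.

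The order of the members was resolved by counting error only in part. Of the 10 pairs among the 5 members, 7 had a ratio whose exact conditional 95% interval left out 1, and 4 of those 7 involved coro. The count of coro was 3.24 times that of ck (2.53 to 4.18) and 5.85 times that of Gel (4.28 to 8.15). It was 4.91 times that of Katanin-60 (3.67 to 6.67), or 9.82 times when reads are divided by the number of listed centres. The count of ck was 1.81 times that of Gel (1.25 to 2.64). Neighbours in the order did not differ beyond counting error below coro. The ratio of ck to alphaTub84B was 1.18 (0.85 to 1.64), that of alphaTub84B to Katanin-60 was 1.29 (0.89 to 1.86) and that of Katanin-60 to Gel was 1.19 (0.79 to 1.79). These intervals are not adjusted for the number of pairs, and the lengths of the sisRNAs are not given, so a higher count can come from a longer RNA as well as from more copies.

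Each member was listed with a hexamer of the poly(A) signal, the short sequence that directs cleavage and polyadenylation of a transcript. All 6 had at least 1 of the 3 hexamers recorded, where 74.9% of the 295 listed hosts had one. The canonical aauaaa was listed for coro, Gel, Katanin-60 and klc, 4 of 6 members against 46.4% of the hosts. The variant auuaaa was listed for ck, alphaTub84B and Gel, 3 of 6 against 24.1%. The variant auaaaa was listed for coro alone, 1 of 6 against 28.5%. So coro and Gel each had 2 hexamers and the other 4 had 1 each, and the hexamers of the 5 counted members were identical in both lists. A share over 6 genes is coarse, and the sequence that the authors searched remains not given in the sources used here.

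Set beside entries with exactly the same hexamers, coro had the highest count. This rests on the same 275 reads that placed coro at rank 6 of 140 entries, so it adds no separate evidence of a high level. The other 15 entries with auaaaa and aauaaa had between 15 and 164 reads, with a median of 44, and none was above the 275 of coro. For ck and alphaTub84B, both with auuaaa alone, 6 and 7 of 21 other entries were higher, and the median of those 21 was 48. For Gel 5 of 9 entries with its pair of hexamers were higher. For Katanin-60 12 of 23 entries with aauaaa alone were higher, around a median of 64.

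The structures of the host genes were not used to choose the members. They were read from the Ensembl annotation of BDGP6.54, a later build than dm3, so only lengths and order were taken from it and no position was moved. The longest annotated intron had 5613 bases in coro, 4150 in ck and 2300 in Gel. In klc it had 1280 bases, in Katanin-60 870, and in alphaTub84B 489. Over all transcripts the actin genes therefore had the 3 longest values and the microtubule genes the 3 shortest. The median of the 6 was 1790 bases, against 1890 over 282 other hosts and 248 over 11740 protein-coding genes with an intron. For the 5 counted members alone it was 2300 bases, against 1058 over 134 other counted hosts. With 1 transcript per gene, the one with the longest spliced length, the median was 948.5 bases for the 6 members and 1281.5 for the other hosts. On that basis it was 870 bases for the counted members and 890.5 for the other counted hosts. Gel then had 820 bases and the other 5 changed by less. This put Gel below klc (1027) and Katanin-60 (870), so the split between actin and microtubule genes did not hold on that basis.

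In coro the longest intron makes up 52.4% of a gene of 10718 bases, and in ck 32.2% of 12900 bases. The gene of alphaTub84B is the shortest of the 6, at 2241 bases, and has a single annotated intron. The numbers of distinct introns over all transcripts were 14 in coro, 13 in ck, 15 in Gel, 6 in Katanin-60 and 8 in klc. Their shortest introns ranged from 53 to 86 bases.

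The longest intron was the first one in 5 of the 6 members, all but Katanin-60, where 40.3% of the 288 hosts placed in the annotation had it first. For alphaTub84B this follows from its having 1 intron. Among genes with at least 2 introns it held for 4 of 5 members and for 99 of 270 other hosts (36.7%). In coro, ck, Gel and klc that first intron lies before the start codon, 4 of 6 members against 24.7% of the hosts. In alphaTub84B and Katanin-60 it lies within the coding region. Over all 11740 genes with an intron the longest one was first in 62.1%, single-intron genes included. Only alphaTub84B has a single annotated intron, and for the other members the intron that holds the sisRNA was not located. The difference between members and hosts was noticed after the structures were read and was not tested.

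**Figure D2:**
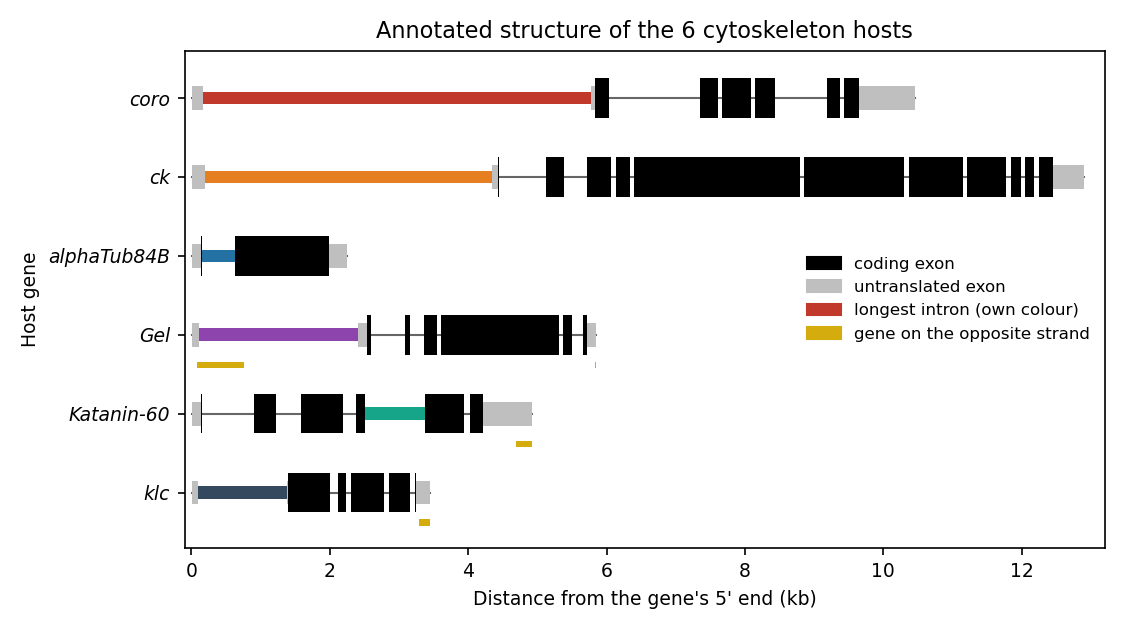
Annotated structure of the 6 host genes, drawn to scale in kilobases from the 5′ end of each gene, for the transcript that holds the longest intron. Tall black blocks are coding exons, grey blocks untranslated exons, the coloured bar the longest intron and the yellow bar a gene on the opposite strand. The longest intron is the first in every gene but Katanin-60, and the opposite strand of an intron is occupied only in Gel.

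Among the 5 counted members the order by read count and the order by longest intron differ in the places of Gel and alphaTub84B. The order by intron length is coro, ck, Gel, Katanin-60 and alphaTub84B, and the order by reads is coro, ck, alphaTub84B, Katanin-60 and Gel. Thus alphaTub84B, with its single intron of 489 bases, had 72 reads, and Gel, with 2300 bases, had 47. With 1 transcript per gene, Gel has 820 bases and falls below Katanin-60 with 870.

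**Figure D3:**
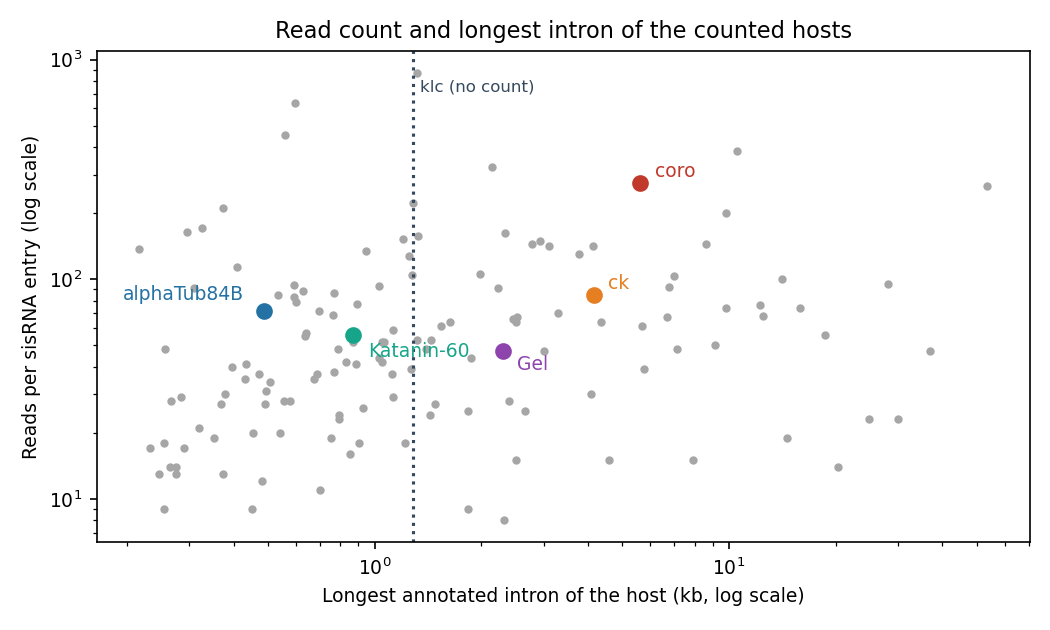
Reads per entry against the longest annotated intron of the host in kilobases, both on log axes, with each point 1 counted host. Coloured points are the 5 counted members and the dotted line marks klc, which has no count. The members lie within the range of the other hosts, and coro has both the highest count and the longest intron of the 5.

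For Katanin-60 and alphaTub84B the listed centres could be set against spacings in the annotation, which need no common build. The 2 centres of Katanin-60 lie 2316 bases apart. Of 14 pairs of its introns that do not overlap, the pair with the nearest midpoint spacing was the introns of 870 and 842 bases, at 2364 bases. Next came 870 and 743 bases, the latter an alternative form of the first intron, at 2413.5 bases. The single intron of alphaTub84B was compared with the introns of its neighbour CG1091, which encodes the uridylyltransferase Tailor. The listed centres of these genes lie 1248 bases apart. Of 9 combinations of introns the nearest was the 489-base intron with the longest CG1091 intron of 369 bases, at 1292 bases. The differences of 48 and 44 bases are the smallest among 14 and 9 combinations, so some closeness follows from picking the nearest. The lists call the centres approximate, and the spacing alone does not show which introns of Katanin-60 were the source.

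The alphaTub84B entry is the closest of the members to another entry. CG1091 is transcribed from the opposite strand, 515 bases separate the genes, and its entry had 27 reads (17.8 to 39.3). The count of alphaTub84B was 2.67 times higher (1.69 to 4.32). The nearest counted entry lay 84618 bases away for Gel (CG9795, 106 reads) and 124584 for coro (CG3267, 21 reads). For Katanin-60 it lay 162966 bases away (CG1172, 23 reads) and for ck 988121 (BicC, 28 reads). All 5 distances fell inside the range that the spans of the annotated genes allow, as did 130 of 132 distances between neighbouring counted hosts.

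An opposite-strand transcript is recorded at Gel. The authors marked the counted entry of Gel as lying with a cis-NAT, that is, an antisense transcript made from the same place. That mark stands on 9.29% of the counted entries, and they gave Gel no mark in the longer list. In the annotation the noncoding gene asRNA:CR46255, of 680 bases, lies inside Gel on the opposite strand, and 649 of its bases overlap the longest intron. Gel was the 1 member of 6 with an opposite-strand gene over an intron, against 35.1% of the 288 hosts. The strand used in counting remains not given in the sources used here, and that transcript's part in the 47 reads of Gel was not tested. Among the counted hosts an opposite-strand gene lay over an intron in 7 of 13 with the mark and in 29 of 126 without it.

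The other members are free of such overlap within their introns. In coro, ck and alphaTub84B no annotated gene on the opposite strand overlaps the gene at all. Katanin-60 meets Vps37B over 238 bases and klc meets CG32109 over 155 bases, in both cases outside the introns. No member had a gene of the same strand over an intron, 0 of 6 against 27.4% of the hosts.

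By position, the 6 members ranged from 0.575% to 44.2% of the genes of their arm, counted from the centromere. The share of all hosts in that range was not computed, so the range cannot be read as a trait of the members. In gene order from the centromere along the arm, Gel was gene 17 of 2955 on 3R (0.575%), Katanin-60 gene 97 (3.28%) and alphaTub84B gene 296. On 2R coro was gene 138 of 2440 (5.66%). The other 2 lay farther from it, with ck at 27.3% of 2L and klc at 44.2% of 3L. Gel, Katanin-60 and coro were among the nearest 10% of genes, 3 of 6 members against 17.7% of the 288 hosts, and alphaTub84B lay just outside that limit. Position in the lists is part of how the members are described, so this share was not tested.

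**Figure D4:**
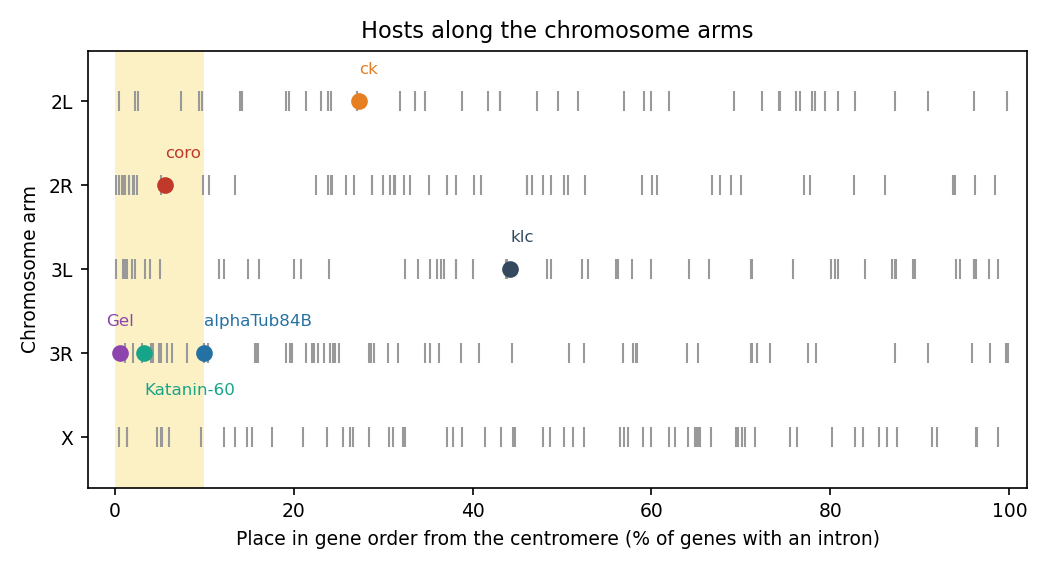
Place of each host in the order of genes with an intron, in percent from the centromere, for the 5 main chromosome arms. Grey ticks are other hosts, coloured points the 6 members, and the shaded band the nearest 10% of genes. Gel, Katanin-60 and coro lie inside the band, alphaTub84B at its edge, and ck and klc outside.

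Other cytoskeleton genes were looked up from 6 lists of 109 symbols, of which 108 matched a gene. Besides the 6 members, 6 of the 99 such genes with an intron on a main arm were hosts (6.06%, exact interval 2.26% to 12.7%). The lists were chosen with earlier results of these data known, so this share was not tested. With the members, 12 of 105 such genes were hosts, and leaving the members out lowers the share because they were chosen as hosts. Of all 11740 genes with an intron, members included, 2.45% were hosts. These shares therefore do not show whether the lists hold more hosts than that background. Eggs do not express every gene of that background. Of the 6 hosts besides the members 2 had a count. The kinesin gene cmet, which encodes a CENP-E protein that moves chromosomes, had 94 reads (76.0 to 115) at 11266741 on 2L with auaaaa listed. Arp14D, annotated as Arp2 and encoding a subunit of the Arp2/3 complex that starts branched actin filaments, had 44 reads (32.0 to 59.1) at 16446315 on X with auuaaa listed. The count of cmet lies within the range of the 5 members, and that of Arp14D lies below Gel, the lowest of them, by less than counting error.

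The remaining 4 hosts had no count, and 3 of them bind actin filaments. They were Actn, the alpha-actinin gene, the tropomodulin gene tmod, which caps filament ends, and the tropomyosin gene Tm2, listed as TMI. The last was Mbs, the myosin phosphatase subunit and the only 1 of all 12 cytoskeleton hosts without a hexamer. By group, none of the 14 other genes for tubulins and their nucleation was listed, and none of the 18 other genes for microtubule binding and severing. The share over all genes with an intron was 2.45%. Groups this small can hold no host at that share, and the groups were not tested against each other. Among motors and their adaptors cmet was listed besides klc, of 26 others. Among actin filament genes Arp14D and Actn were listed of 27, and among myosins and their regulators Mbs was listed of 12 besides ck. In a mixed group of other actin-binding genes, put together with coro and Gel, tmod and Tm2 were listed of 5 besides the members. The longest annotated intron of the 6 additional hosts ranged from 593 bases in cmet to 38301 in tmod, so they span a wider range than the members. It was the first intron in Actn and Tm2 but not in Arp14D, Mbs, cmet and tmod. From the centromere they lay at 26.6% (Arp14D), 32.5% (Mbs), 40.7% (Tm2), 41.7% (cmet), 91.4% (Actn) and 95.8% (tmod). All were outside the nearest 10% of genes. So the members' shares for these traits do not stand for all 12 cytoskeleton hosts.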

How the data were processed

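Trizol extraction gave the egg RNA, and libraries followed Illumina's standard preparation, per the labels' protocols. Positions are in dm3, the build that the submitters' processing notes name. Alignment, counting, strand and the calling of sisRNAs remain not given in the sources used here. As for files, the authors deposited a list of 295 hosts with arm and hexamers and a list of 140 entries with a dm3 centre and a read count. These counts are whole numbers, deposited without normalization in 1 column.

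The members, the gene lists, the tests and the alternatives were chosen with earlier results of these data known. By rule, the genes named are the members, counted entries next to them in read count or position, and genes of the cytoskeleton lists that are hosts. Outside the rule, MICAL, syd, hts, scra and the role given to polo were chosen after their values were seen. Intervals at 95% were exact Poisson for counts, exact conditional binomial for ratios and Clopper-Pearson for shares. They were computed with Python 3.11.15, numpy 2.4.6 and scipy 1.17.1. Those for counts and ratios were checked on simulated Poisson counts, which tests their computation and not the Poisson model. A read is not an independent molecule, and the intervals understate the error. Host symbols were matched by name and RefSeq synonym to Ensembl release 115 (BDGP6.54), 293 of 298 in all, 2 on another arm than listed, and 288 entered the comparisons of structure and position. The gene order from the centromere counts protein-coding genes of the 5 main arms that have an intron. The planned search for hexamers in introns was not made.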

Additional observations from a re-analysis of the deposited data

How the results depend on the processing

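The members' median of 72 reads ranged from 64 to 78.5 over the alternatives (a minimum of 10 or 20 reads, without marked entries, without entries with 2 centres, without the highest entry, without coro, and against other entries of the same arms). Its log2 ratio to the other entries ranged from 0.26 to 0.71. The share of other hosts with a count was 40.8% on the arms that hold a member, against 45.7% overall. The log2 ratio of the members' median longest intron was -0.08 against other hosts and 2.85 against all genes with an intron, which follows from the choice of comparison set. The ratio of coro to Katanin-60 was 4.91, and 9.82 per listed centre, an alternative chosen after seeing the data. No paired analysis was possible because no count is tied to a library. Hexamer matches per kilobase of intron were not run. The single count per entry, with no library total, replicate or RNA length, limits every level given here.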

Other observations

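Further hosts with roles at the cytoskeleton were outside the lists and were picked for mention after their values were seen. MICAL, an enzyme that takes actin filaments apart by oxidising them, had 19 reads (11.4 to 29.7) centred at 5829772 on 3R. The gene syd, which encodes an adaptor between kinesin and its cargo, had 50 reads (37.1 to 65.9) at 7924586 on 3L and all 3 hexamers listed. The mitotic kinase gene polo had 57 reads (43.2 to 73.9) at 20303874 on 3L. The adducin gene hts and the anillin gene scra, both on 2R, were listed without a count.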
